A study of Mus musculus with 22 samples.

Results

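The 8 genes described here, Pparg, Cebpa, Cebpb, Cebpd, Ebf1, Ebf2, Zfp423 and Tle3, encode transcription factors and a cofactor that set and keep the identity of the fat cell. They were taken by name as rows of the count tables. All 8 were among the 47628 genes listed for white adipose tissue (WAT) and the 55327 listed for striatum, and all 8 passed the filter on low counts, alongside 17928 and 15827 genes tested in all.

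The RNA-seq study asked which transcripts change when thyroid hormone (TH) is given to hypothyroid mice. All groups were labelled as wild-type male C57BL/6J mice of 8 weeks. In the PTU group, propylthiouracil, a drug that blocks synthesis of the hormone, was given for 2 weeks. The TH groups were sampled 6 h or 24 h after the hormone for WAT and 12 h or 24 h after it for striatum, a brain region that served here as the tissue without fat cells. Each WAT group had 4 libraries, as did both TH groups of striatum, while the striatum PTU group had 2. According to the study's overview, the WAT mice received PTU in their food and then a single injection of T3 and T4, whereas no hypothyroidism procedure was listed for striatum, although its control group is labelled as treated with PTU. The labels of the TH groups name the hormone alone. The depot from which the fat was taken was not given in the sources used here, and libraries were not stated to be separate animals, so p-values measure the spread between these libraries only.

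In the classical order of fat cell differentiation, the C/EBP family members Cebpb and Cebpd come on first and switch on Pparg and Cebpa, which then maintain each other and the genes of lipid storage. EBF factors and the zinc finger protein Zfp423 act in precursor cells, where they favour commitment to the fat lineage, and remain in mature fat cells. Ebf2 is best known for selecting the brown and beige programme, and Zfp423 for restraining it in white fat cells, while Tle3 is a cofactor that works with PPARG on white fat genes. Thyroid hormone acts through nuclear receptors that, like PPARG, bind DNA together with RXR.

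In the GENCODE M21 annotation of GRCm38, Pparg lies at chr6:115360951-115490399 with 7 transcripts, Ebf1 at chr11:44617317-45008091, Ebf2 at chr14:67233292-67430918, Tle3 at chr9:61372366-61418497 and Zfp423 at chr8:87661810-87959595 on the minus strand. The C/EBP genes are short, at chr7:35119293-35121928 for Cebpa, chr2:167688915-167690418 for Cebpb and chr16:15887286-15891031 for Cebpd. Reads over all exons of a gene were summed in 1 count.

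The sequence before the start of transcription is shown for 4 of the 5 genes that changed in WAT, as a single window per gene that holds some of the letters searched. The other Pparg windows also hold some of these letters and are not shown. The Ebf1 windows hold none of them. The windows are the 250 bases before a RefSeq start on GRCm38.p6, written 5′ to 3′ on the strand of the gene. Capitals mark AGGTCA, the half-site of nuclear receptors, TGACG, the half-site of the cAMP response element, TATAAA and CCAAT, on either strand. Pparg has several starts, which give its isoforms, and the counts do not separate them.
Cebpb, chr2:167688665-167688914, plus strand: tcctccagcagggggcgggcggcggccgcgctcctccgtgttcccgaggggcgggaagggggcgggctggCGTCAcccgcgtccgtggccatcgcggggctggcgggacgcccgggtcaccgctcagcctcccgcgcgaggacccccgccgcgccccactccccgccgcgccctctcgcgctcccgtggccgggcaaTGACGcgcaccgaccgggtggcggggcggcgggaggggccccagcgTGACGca
Cebpa, chr7:35119043-35119292, plus strand: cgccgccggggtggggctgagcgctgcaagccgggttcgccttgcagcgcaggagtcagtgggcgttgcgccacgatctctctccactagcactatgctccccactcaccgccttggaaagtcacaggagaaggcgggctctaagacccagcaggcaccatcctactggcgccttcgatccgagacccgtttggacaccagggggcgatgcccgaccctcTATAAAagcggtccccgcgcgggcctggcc
Pparg, second of 3 starts, chr6:115362099-115362348, plus strand: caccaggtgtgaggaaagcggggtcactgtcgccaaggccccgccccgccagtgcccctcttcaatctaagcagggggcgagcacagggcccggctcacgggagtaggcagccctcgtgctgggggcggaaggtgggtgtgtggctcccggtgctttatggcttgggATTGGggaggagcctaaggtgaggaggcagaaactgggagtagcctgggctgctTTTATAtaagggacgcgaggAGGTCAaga
Zfp423, inner of its starts, chr8:87804440-87804689, minus strand: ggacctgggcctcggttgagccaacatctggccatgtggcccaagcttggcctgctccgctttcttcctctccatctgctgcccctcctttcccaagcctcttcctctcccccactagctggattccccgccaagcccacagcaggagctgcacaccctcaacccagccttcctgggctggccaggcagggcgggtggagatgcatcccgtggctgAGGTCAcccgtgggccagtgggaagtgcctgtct

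The RefSeq table held 10 windows of 6 of the 8 genes. It gave none for Cebpd and Ebf2. The Cebpb window was 81.6% G and C and held TGACG in 3 places, 180, 53 and 7 bases before the start, the first of them on the reverse strand. TGACG was present in 17.8% of all 32851 promoter windows of this length and in 2 of the 10 windows of these genes, those of Cebpb and Tle3. AGGTCA was found in 3 of the 10 windows, against 14.02% of all promoters. It stood 28 bases before the first and 9 bases before the second Pparg start, and 34 bases before the inner Zfp423 start. The direct repeat of that half-site with 4 bases between, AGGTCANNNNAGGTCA, the usual element of thyroid hormone receptors, was in 0 of the 10 windows and in 0.0152% of all. The repeat with 1 base between, AGGTCANAGGTCA, bound by PPARG with RXR, the C/EBP palindrome TTGCGCAA, the full cAMP element TGACGTCA and the EBF palindrome TCCCNNGGGA were likewise in 0 of the 10, against 0.0335%, 0.164%, 1.55% and 0.779% of all. Both repeats contain AGGTCA and the full cAMP element contains TGACG. The Cebpa window had TATAAA at 30 bases before the start, a motif found in 12.4% of all windows and in 2 of these 10, and CCAAT was in 33.8% of all and in 3 of the 10. A match of letters is a description and not a binding site.

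Total counts were 17.3 to 26.9 M a library in WAT and 8.04 to 10.1 M in striatum. Values below are normalised counts, that is, counts scaled by the edgeR library factor to the mean library of the tissue, and tests are edgeR quasi-likelihood tests with Benjamini-Hochberg adjustment over all genes tested. The tissues held their defining markers: the fat hormone gene Adipoq was between 1504 and 4429 CPM (counts relative to the total of the library, on the usual scale) in WAT and at most 0.357 CPM in striatum. The WAT libraries also held skeletal muscle RNA, with 7 muscle markers summing to 41.1 to 22247 CPM, and 7 markers of stratified epithelium summed to 7.02 to 179.8 CPM, highest in replicate 3 of TH 6 h. In striatum, replicate 2 of TH 24 h stood apart, with 12 markers of striatal projection neurons at 296 CPM against 1840.1 to 5060 CPM in the other libraries. Striatal libraries also went against their male label: Xist, expressed from the inactive X chromosome, was at 22070.1 to 33693 normalised counts in 1 of 2 PTU, 1 of 4 TH 12 h and 4 of 4 TH 24 h libraries, where the Y-linked Ddx3y was at most 1.19, and Ddx3y was at 186 to 254 in the remaining striatal libraries.

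In WAT of the PTU group, Cebpa and Pparg were by far the most abundant of the 8 per length of exon. The order was Cebpa at 130.3 ± 12.1 CPM per kilobase (SD, n = 4), Pparg at 88.6 ± 15.02, Cebpb at 19.3 ± 2.89, Ebf1 at 13.0 ± 1.41, Zfp423 at 5.71 ± 1.05, Tle3 at 3.95 ± 1.26, Cebpd at 3.68 ± 1.91 and Ebf2 at 2.76 ± 0.447 CPM per kilobase. The ranges of Cebpa, Pparg, Cebpb and Ebf1 overlapped with no other in this order. Zfp423 (4.74 to 6.84), Tle3 (2.73 to 5.69), Cebpd (2.48 to 6.50) and Ebf2 (2.15 to 3.14) each overlapped with the next, although Zfp423 lay above Ebf2. Divided by the longest transcript in place of all annotated exons, Ebf1 came to 21.2 and passed Cebpb, and Pparg came to 123.1, close to Cebpa at 130.8 CPM per kilobase.

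The same 8 genes were ordered differently in striatum. There Ebf1 led with 5.40 ± 0.587 CPM per kilobase in the PTU group (SD, n = 2), followed by Zfp423 at 3.64 ± 0.749 and Tle3 at 1.76 ± 0.466, while Pparg was at 0.369 ± 0.119. The counts of the tissues were tabulated apart and RNA was extracted by different methods, so the tissues are set side by side without a test. In CPM, the WAT mean of the PTU group was 240.2 times that of striatum for Pparg, 154 times for Cebpa, 27.1 times for Cebpb and 10.1 times for Ebf2. It was 2.60 times for Cebpd, 2.40 times for Ebf1, 2.24 times for Tle3 and 1.57 times for Zfp423. The Ebf2 ratio rests on striatal libraries that differed widely, at 3.34 and 0.421 CPM (30 and 4 raw counts).

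**Figure D1:**
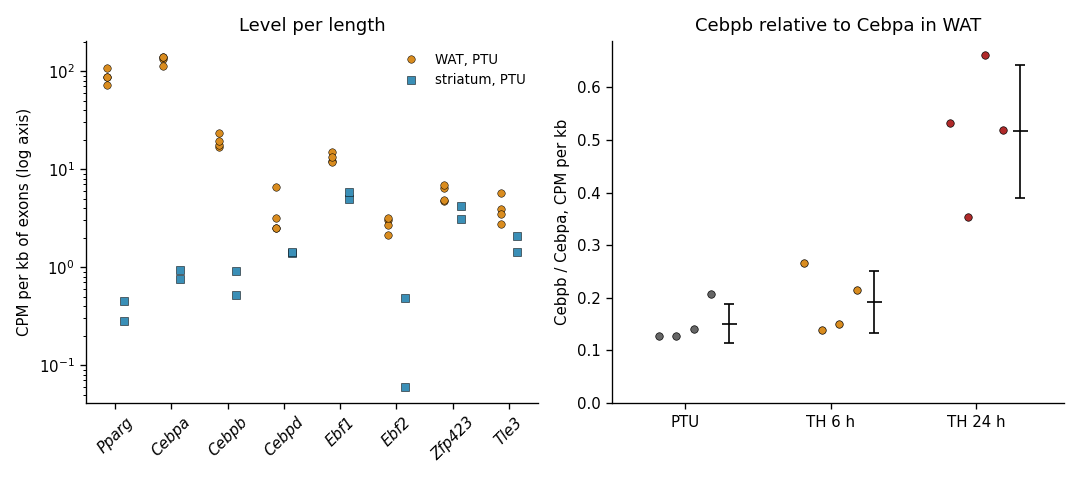
Left, level of each gene in the PTU libraries of WAT (circles, n = 4) and striatum (squares, n = 2), in CPM per kilobase of exon on a log axis. Right, the ratio of Cebpb to Cebpa per length in each WAT library, with mean ± SD. Cebpa and Pparg stood above 70 in WAT and below 1 in striatum, and the ratio was above 0.35 in all 4 libraries of TH 24 h and below 0.27 in all others.

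After TH, the 8 genes did not move as a block in WAT. At 6 h, Cebpa and Cebpb were higher and Ebf1 lower than in the PTU group, and at 24 h Cebpb was higher and Pparg, Ebf1 and Zfp423 lower. The count was 3 of 8 called at 6 h, 2 higher and 1 lower, at an adjusted p under 0.05, against 7.23% of all genes (4.18% upward and 3.05% downward). At 24 h it was 4 of 8, 1 higher and 3 lower, against 17.1% of all genes (7.45% upward and 9.62% downward). The median log2 change of the 8 was -0.09 at 6 h and -0.14 at 24 h, beside -0.03 and -0.002 over all genes tested. Between 6 h and 24 h, 2 of 8 were called, Cebpb higher and Cebpa lower, where the share of all genes was 7.41%.

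**Figure D2:**
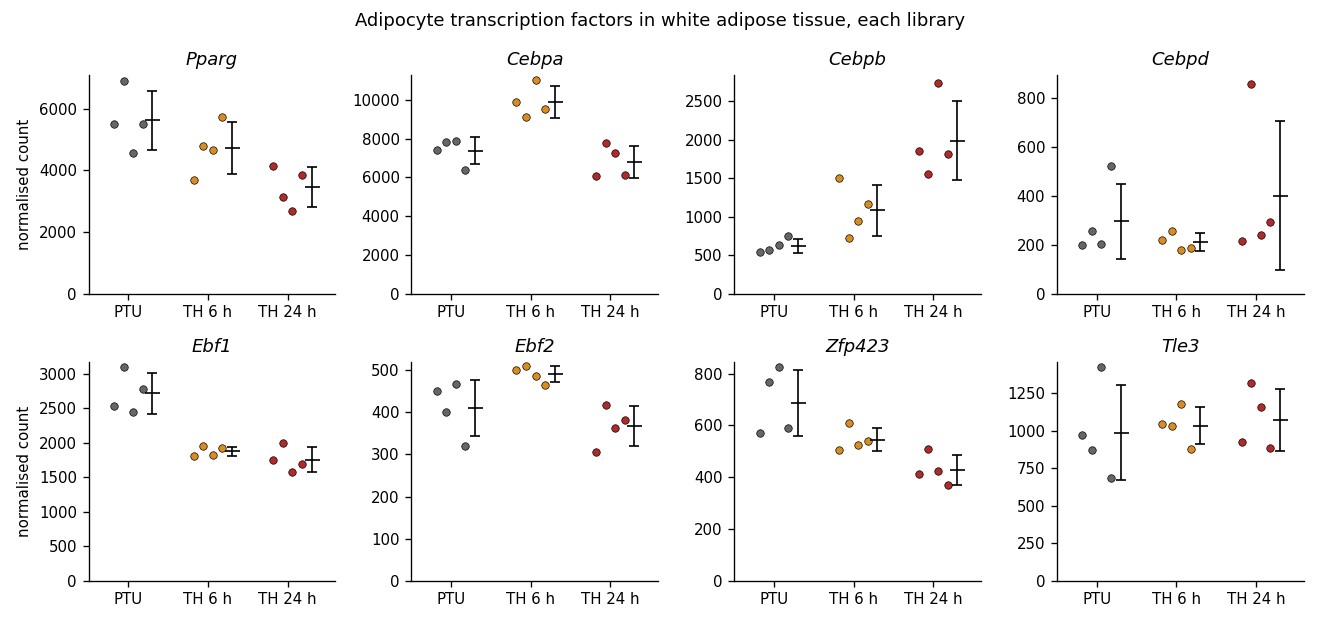
Normalised counts of the 8 genes in each of the 12 WAT libraries (points), by group, with the group mean ± SD beside them (n = 4). Cebpb was higher in every TH 24 h library than in any PTU library, and Ebf1, Zfp423 and Pparg were lower in every TH 24 h library than in any PTU library. Such a separation, in either direction, was found for 19.3% of all genes.

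Pparg, the nuclear receptor that drives fat cell differentiation and lipid storage, was at 5515, 6885, 4573 and 5498 normalised counts in the 4 PTU libraries of WAT. It was at 3685, 4783, 4656 and 5741 at 6 h and at 4134, 3147, 2694 and 3836 at 24 h. The ranges of PTU and 6 h overlapped, while every library of 24 h lay below every PTU library, as was so for 19.3% of all genes in one direction or the other. The log2 change was -0.25 ± 0.17 (SE) at 6 h, with an adjusted p of 0.375, and -0.70 ± 0.17 at 24 h, a fall of 38.5%, with an adjusted p of 0.0151. When the lowest library, replicate 3 of TH 24 h, was left out, the 24 h change was -0.59 and just missed the threshold (adjusted p = 0.0503). Between the TH times the change was -0.45 ± 0.17 and did not pass (adjusted p = 0.128).

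Cebpa, the partner of PPARG in the mature fat cell, was higher at 6 h and overlapped with PTU at 24 h. The PTU libraries held 7433, 7827, 7858 and 6394 normalised counts, the 6 h libraries 9897, 9138, 11043 and 9510.2, and the 24 h libraries 6081, 7756, 7251 and 6151. All 4 libraries of 6 h lay above all PTU and all 24 h libraries, and PTU and 24 h overlapped. At 6 h, groups without overlap were found for 13.9% of all genes, and between 6 h and 24 h for 21.8%. Cebpa thus changed by 0.42 ± 0.12 on the log2 scale at 6 h, that is 1.34-fold (adjusted p = 0.0442). It differed from PTU by -0.12 ± 0.11 at 24 h, which did not pass (adjusted p = 0.517), and the step between the TH times was -0.54 ± 0.12 (adjusted p = 0.0169). The 6 h call lies at the threshold. Its adjusted p was 0.0754 and 0.0588 without PTU replicates 2 and 4, 0.0680, 0.0619, 0.114 and 0.0647 without each of the TH 6 h replicates 1 to 4, and 0.0551 and 0.0566 without TH 24 h replicates 1 and 4, while its log2 change stayed between 0.37 and 0.46 in all 12 such fits. The fall between the TH times had an adjusted p of 0.0519 and 0.0537 without TH 24 h replicates 1 and 4. With the muscle or the epithelial marker sum as a covariate, the adjusted p was 0.0575 or 0.190 at 6 h and 0.0642 or 0.152 between the TH times.

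Cebpb, the early factor of differentiation that also answers to cAMP and to inflammatory signals, had the largest change of the 8 in WAT. It was at 541, 572, 632 and 753 normalised counts in PTU, at 1499, 725, 948 and 1163 at 6 h and at 1849, 1561, 2736 and 1820.5 at 24 h. The 6 h libraries overlapped those of PTU in replicate 2 alone, and all 4 libraries of 24 h lay above all libraries of both other groups. Groups without overlap, in either direction, were found for 19.3% of all genes between PTU and 24 h and for 21.8% between 6 h and 24 h. Its log2 change was 0.79 ± 0.22 at 6 h (1.74-fold, adjusted p = 0.0469) and 1.67 ± 0.22 at 24 h (3.19-fold, adjusted p = 0.000407). Between the TH times it rose by a further 0.88 ± 0.22 (adjusted p = 0.0310). The 24 h change was larger in size than that of 98.2% of all genes tested, and it was called in all 20 alternative fits, with log2 changes of 1.49 to 1.78.

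The smaller Cebpb steps were less firm. At 6 h the adjusted p was 0.0723, 0.116 and 0.0669 without PTU replicates 1, 2 and 3, 0.114, 0.0691 and 0.103 without TH 6 h replicates 1, 3 and 4, and 0.0647 and 0.0641 without TH 24 h replicates 1 and 4. Between the TH times it was 0.0715, 0.0757 and 0.0609 without TH 6 h replicates 2, 3 and 4, and 0.0562, 0.0828 and 0.0557 without TH 24 h replicates 1, 3 and 4. With the muscle or the epithelial covariate, it was 0.0591 or 0.227 at 6 h and 0.113 or 0.0751 between the TH times. Exons of Cebpb overlap those of Tmem189 on the opposite strand, and the strand setting of the counting was not given in the sources used here. Tmem189 itself was at 791 to 1016 normalised counts in PTU and 844 to 992 at 24 h (log2 change 0.03 ± 0.20, adjusted p = 0.934), so it did not move with Cebpb at 24 h. At 6 h it was at 1065 to 2229 (0.61 ± 0.20, adjusted p = 0.0893), and its part in the Cebpb value there was not tested.

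Cebpd, the other early C/EBP factor, was low and uneven. It was at 199.8, 257, 203 and 523 normalised counts in PTU, at 219, 257, 179 and 187 at 6 h and at 214, 855, 238 and 294 at 24 h. Replicate 4 of PTU and replicate 2 of 24 h stood far above the rest of their groups, and all 3 groups overlapped. Relative to PTU, Cebpd differed by -0.48 ± 0.43 on the log2 scale at 6 h and by 0.44 ± 0.43 at 24 h, with adjusted p of 0.510 and 0.506, and without replicate 2 of TH 24 h the latter turned to -0.25. Without PTU replicate 4 the 6 h value was -0.035. In replicate 2 of TH 24 h the acute-phase genes Saa3 and Lcn2 were also at their highest, at 568 and 537 normalised counts against 14.5 to 117.8 and 26.6 to 43.5 in the other libraries of 24 h. In PTU replicate 4 they were at 23.4 and 18.4, while Lcn2 was at 268 in PTU replicate 1 and 281 in TH 6 h replicate 3. Skeletal muscle markers had their highest sums in PTU replicate 4 (22247 CPM) and TH 24 h replicate 2 (12037 CPM). The part of either set of genes in the Cebpd values was not tested. Exons of Cebpd overlap Spidr on the opposite strand, which stayed between 141 and 175 in all 12 WAT libraries.

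The balance within the C/EBP family shifted between the groups. Per length, the ratio of Cebpb to Cebpa was 0.128, 0.128, 0.141 and 0.206 in the PTU libraries of WAT. It was 0.265, 0.139, 0.150 and 0.214 at 6 h and 0.533, 0.353, 0.661 and 0.519 at 24 h, where each library lay above all 8 others. Of the summed level of Cebpa, Cebpb and Cebpd per length, Cebpb made up 12.7 ± 2.47% in PTU, 15.8 ± 4.06% at 6 h and 32.9 ± 6.06% at 24 h (SD, n = 4), with Cebpa at 84.9 ± 3.85%, 83.0 ± 3.96% and 64.5 ± 4.31%. The sum itself was 143 to 161 CPM per kilobase in PTU, 187 to 227 at 6 h and 167 to 216 at 24 h, so that both TH groups lay above PTU. The ratio of Pparg to Cebpb per length was 3.69 to 6.13 in PTU and 0.501 to 1.14 at 24 h. Divided by the longest transcript, the 24 h means were 75.7 CPM per kilobase for Pparg and 61.7 for Cebpb. These ratios restate the changes of the single genes given above and were not tested.

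Ebf1, the more abundant of the EBF factors, which act upstream of Pparg and Cebpa in fat precursors and bind beside PPARG in fat cells, fell at both times. It was at 2529, 3104, 2453 and 2789 normalised counts in PTU, at 1813, 1951, 1829 and 1919.9 at 6 h and at 1755, 2003, 1573 and 1697 at 24 h. Both TH groups lay entirely below PTU and overlapped each other. Groups that did not overlap with PTU, in either direction, were found for 13.9% of all genes at 6 h and 19.3% at 24 h. Ebf1 changed by -0.53 ± 0.10 on the log2 scale at 6 h, a fall of 30.9% (adjusted p = 0.00659). At 24 h the change was -0.63 ± 0.10, a fall of 35.4% (adjusted p = 0.00113), and between the TH times it was -0.10 ± 0.10 (adjusted p = 0.587). Leaving out any single library kept both calls, with adjusted p of at most 0.0266 at 6 h and 0.00536 at 24 h, and only the epithelial marker sum as a covariate took the 6 h call away (-0.45, adjusted p = 0.0648).

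Ebf2, the EBF factor of the brown and beige programme, did not follow Ebf1. It was at 452, 401, 467 and 319.7 normalised counts in PTU, 501, 511, 487 and 466 at 6 h and 305, 419, 364 and 382 at 24 h. The 6 h libraries were close together and, but for a near tie of 466 with 467, above those of PTU, and all 4 lay above the 24 h libraries. Between 6 h and 24 h, 21.8% of all genes had groups without overlap in either direction. Ebf2 differed from PTU by 0.26 ± 0.13 on the log2 scale at 6 h (adjusted p = 0.218), by -0.16 ± 0.13 at 24 h (adjusted p = 0.413), and between the TH times by -0.42 ± 0.13 (adjusted p = 0.0639). That last change passed by DESeq2 (adjusted p = 0.0256), with only the groups of the contrast in the edgeR fit (0.0204), and without PTU replicate 1 (0.0424) or 4 (0.0232). The ratio of Ebf1 to Ebf2 per length was 3.73 to 6.19 in PTU, 2.57 to 2.92 at 6 h and 3.07 to 4.09 at 24 h.

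Zfp423, the zinc finger protein that marks committed precursors and keeps white fat cells white, was lower at 24 h. It was at 571, 767, 824 and 589 normalised counts in PTU, at 504, 609, 525 and 540.3 at 6 h and at 414, 508, 422 and 369 at 24 h. The 6 h range overlapped both others, and all 24 h libraries lay below all PTU libraries, a separation found in either direction for 19.3% of all genes. Zfp423 differed from PTU by -0.34 ± 0.14 on the log2 scale at 6 h, which did not pass (adjusted p = 0.150). At 24 h it had fallen by 37.7%, a log2 change of -0.68 ± 0.14 (adjusted p = 0.00538), and that call held in all 20 alternative fits. Tle3, the PPARG cofactor, was at 973, 870.3, 1425 and 684 normalised counts in PTU, 1044, 1035, 1180.2 and 878 at 6 h and 923, 1321, 1161 and 885 at 24 h. Its groups overlapped, with log2 changes of 0.06 ± 0.20 (adjusted p = 0.867) and 0.12 ± 0.20 (adjusted p = 0.716), and its sign turned when single libraries were left out.

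**Figure D3:**
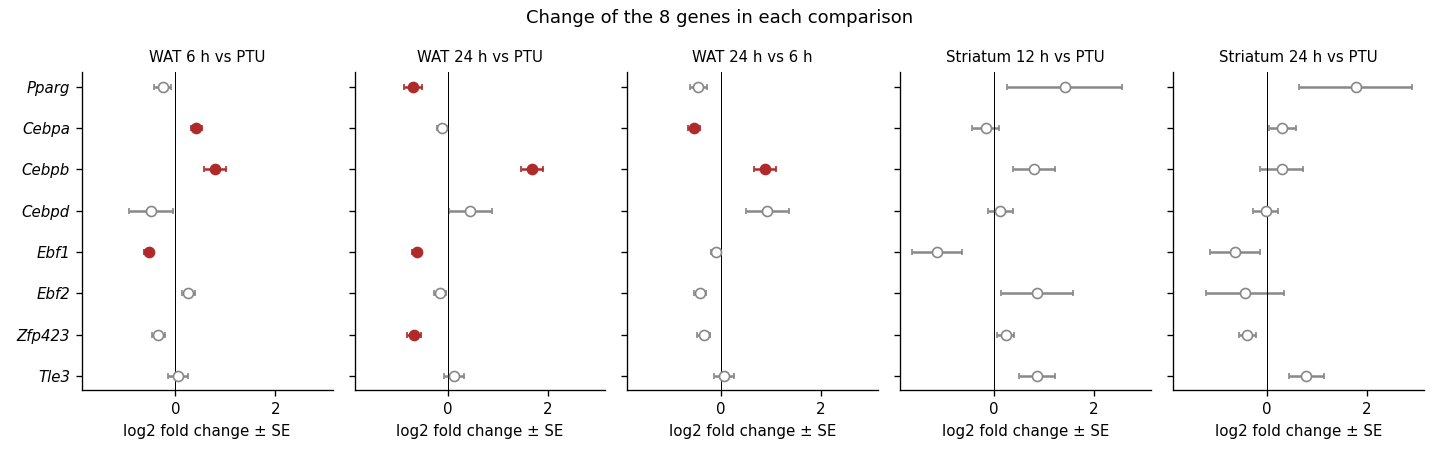
Log2 fold change ± SE of the 8 genes in the 3 comparisons of WAT and the 2 of striatum, from edgeR. Filled red points passed an adjusted p of 0.05 and open grey points did not. The WAT changes had standard errors of 0.10 to 0.43, and no gene passed in striatum.

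Markers of some cell types in the tissue also changed between the groups. Beside the counts below, 3.05% of all genes were called lower and 4.18% higher at 6 h, and 9.62% and 7.45% at 24 h. Between the TH times 4.35% of all genes were called lower. The 8 markers of mature fat cells summed to 8215 to 11078 CPM in PTU, 7845 to 9231 at 6 h and 3909 to 6115 at 24 h. Of the 8, 3 were called lower at 24 h and 3 were called lower between the TH times. The 12 markers of fat precursors and fibroblasts summed to 1909 to 3932 CPM in PTU, 1411 to 1960 at 6 h and 1564 to 1954 at 24 h, with 3 of 12 called lower at either time. Endothelial markers (7) summed to 498 to 744, 446 to 547 and 450.5 to 583 CPM in the same order, and leukocyte markers (7) to 476 to 639, 362 to 736 and 571 to 697 CPM. The ranges of both lists overlapped between all groups, and only 1 endothelial marker was called, lower at 6 h. Of 6 pericyte markers, 1 was called higher at 6 h and 1 lower at 24 h, and no muscle marker was called. The 6 brown fat markers summed to 131 to 254 CPM in PTU, 313 to 523 at 6 h and 460 to 1830 at 24 h, with 1 of 6 called higher at 6 h and 4 of 6 at 24 h. Within that sum, Pdk4 (35.8 to 846 CPM) and Ucp1 (0.224 to 575 CPM) had the widest ranges over the WAT libraries. The 7 markers of stratified epithelium summed to 7.02 to 34.6 CPM in PTU, 13.0 to 179.8 at 6 h and 9.53 to 14.5 at 24 h. Of the 7, 1 was called lower at 24 h than in PTU and 4 were called lower between the TH times. In bulk tissue, fewer cells of a type and less RNA per cell cannot be told apart, and the part of cell composition in the changes of the 8 genes was not tested.

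**Figure D4:**
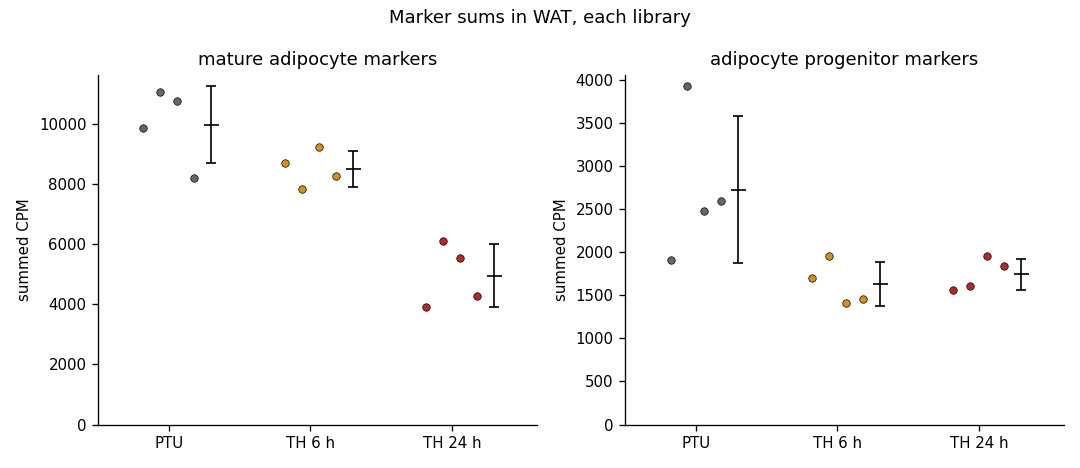
Summed CPM of the 8 mature fat cell markers (left) and the 12 precursor and fibroblast markers (right) in each WAT library, with group mean ± SD (n = 4). The fat cell sum was at most 6115 in the libraries of TH 24 h and at least 7845 in all others, and the precursor sum overlapped between PTU and both TH groups.

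The target genes of PPARG and C/EBPA did not pass at 6 h and included more falls than rises at 24 h. Of 30 such genes, 0 passed the edgeR test at 6 h, against 7.23% of all genes. At an unadjusted p under 0.05 there were 6 of the 30, against 4557 of all 17928 genes. At 24 h 3 rose and 9 fell, against 7.45% of all genes upward and 9.62% downward, and between the TH times 1 rose and 7 fell, against 3.07% of all genes upward and 4.35% downward. The median log2 change was 0.01 at 6 h and -0.26 at 24 h. The list holds all 8 markers of mature fat cells named above. Adipoq, which encodes adiponectin, fell from 77120 ± 12070 to 34381 ± 1871 normalised counts at 24 h (log2 change -1.17 ± 0.12, adjusted p = 8.4e-05). Acsl1, which activates fatty acids, fell from 46336 ± 6057 to 12347 ± 5400 (-1.91 ± 0.26, adjusted p = 0.000505). Cidec, the lipid droplet protein that merges droplets, fell by 1.87 ± 0.34 on the log2 scale and Dgat1, which makes triglycerides, by 1.17 ± 0.13. Between the TH times the log2 change was -0.89 ± 0.14 for Plin1, the coat protein of the droplet, and -1.81, -1.63 and -1.26 for Acsl1, Cidec and Dgat1. Against this direction, the desaturase gene Scd1 rose from 199873 ± 62844 to 613660 ± 62953 (1.62 ± 0.25, adjusted p = 0.00110) and the lipid droplet gene Pnpla3 from 5615 ± 1641 to 11060 ± 2870 (0.98 ± 0.22, adjusted p = 0.0112).

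Over 17 other regulators listed here as promoting fat cell formation, the median log2 change was 0.27 at 6 h. Of the 17, 6 were called higher and 0 lower at that time, against 4.18% and 3.05% of all genes. Among them were Klf15, a factor induced by glucocorticoids (882 ± 171 to 1445 ± 195 normalised counts, log2 change 0.71 ± 0.16, adjusted p = 0.0180), Stat5b, which carries growth hormone signals (820 ± 142 to 1280 ± 46.8, 0.64 ± 0.11, adjusted p = 0.00458), the C/EBP family member Cebpg (916 ± 174 to 1409 ± 49.9, 0.62 ± 0.12, adjusted p = 0.00927) and the glucocorticoid receptor Nr3c1 (1904 ± 215 to 2599 ± 83.8, 0.45 ± 0.11, adjusted p = 0.0260). At 24 h only Stat5b was higher (0.62 ± 0.11, adjusted p = 0.00279) and the coactivator gene Ncoa1 was lower (-0.37 ± 0.09, adjusted p = 0.0179), with a list median of -0.05. That was 1 of 17 in each direction, against 7.45% of all genes upward and 9.62% downward, so these 24 h counts are near the background. Between the TH times, 4 of 17 fell and 0 rose, against 4.35% and 3.07% of all genes, with log2 changes of -1.13 for Klf15, -0.74 for the zinc finger gene Zfp467, -0.66 for Rxra, which encodes the partner receptor of PPARG, and -0.50 for Nr3c1. Cebpa fell over the same interval, as given above.

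Of 17 regulators that hold fat cell formation back, 1 was called higher and 1 lower at 6 h, and 2 higher and 1 lower at 24 h, with median log2 changes of 0.01 and -0.23. Over all genes, 4.18% were higher and 3.05% lower at 6 h and 7.45% and 9.62% at 24 h, so these counts are near the background. Foxo1, which represses Pparg, rose from 1293 ± 41.2 to 2235 ± 145 normalised counts at 6 h (0.79 ± 0.08, adjusted p = 0.000105) and was still higher at 24 h (0.52 ± 0.08, adjusted p = 0.00111). Ddit3, a C/EBP-like protein that blocks other members of the family, was higher at 24 h (0.79 ± 0.21, adjusted p = 0.0206). Wnt10b, a WNT ligand that blocks fat cell formation, was lower at 6 h at a low level (22.1 ± 6.97 to 7.82 ± 0.921, adjusted p = 0.0366), Tcf7l2, an effector of WNT signals, was lower at 24 h (-0.49 ± 0.12, adjusted p = 0.0134), and Klf3 fell from 6 h to 24 h (-0.43 ± 0.09, adjusted p = 0.0122).

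Of 14 regulators of the brown and beige programme, 5 were called higher and 0 lower at 6 h, and 5 higher and 2 lower at 24 h, with medians of 0.39 and 0.28. Among all genes the shares were 4.18% and 3.05% at 6 h and 7.45% and 9.62% at 24 h. Ppargc1a, the coactivator of PPARG that drives formation of mitochondria, rose from 74.4 ± 12.4 to 640.2 ± 55.5 normalised counts at 6 h (3.10 ± 0.18, adjusted p = 1.2e-06) and was at 387 ± 92.0 at 24 h (2.38 ± 0.18, adjusted p = 8.9e-06). The fatty acid receptor Ppara rose by 2.08 ± 0.43, the estrogen-related receptor Esrrg by 1.70 ± 0.36 and the coactivator Ppargc1b by 0.95 ± 0.25 at 6 h, and Esrrg (2.01 ± 0.37) and Esrra (0.54 ± 0.14) were higher at 24 h. Nfia, a factor that works with PPARG in brown fat, was lower at 24 h (-0.51 ± 0.14, adjusted p = 0.0258), as was Zfp516 (-0.41 ± 0.11, adjusted p = 0.0212). Between the TH times, Ppargc1a and Nfia fell, with log2 changes of -0.73 ± 0.16 and -0.65 ± 0.14. That was 2 of 14 lower and 0 higher, against 4.35% and 3.07% of all genes.

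In striatum, none of the 8 genes passed the test at either time. Of the 8, edgeR called 0 at 12 h, against 0.96% of all genes (0.733% upward and 0.227% downward), and 0 at 24 h, against 0.348% (0.316% upward and 0.0316% downward). At an unadjusted p under 0.05 there were 2 of 8 at each time, Ebf1 and Tle3 at 12 h and Tle3 and Zfp423 at 24 h. Of all 15827 genes, 3197 were under it at 12 h and 1524 at 24 h. DESeq2 called 0 of 8 at both times. The striatal groups also differed in how many of their libraries had high Xist, as given above. With Xist as a covariate, added after seeing the data, edgeR likewise called 0 of 8 at both times. The groups did not overlap for 4 of 8 at 12 h (36.4% of all genes, with only 2 PTU libraries) and for 0 of 8 at 24 h (18.2%).

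Ebf1, which is also a factor of developing striatal neurons, was in striatum at 458 and 534 normalised counts in PTU, at 291, 202, 184 and 223 at 12 h and at 445, 65.0, 477 and 297 at 24 h, so that all 12 h libraries lay below PTU. The log2 change at 12 h was -1.14 ± 0.50 (adjusted p = 0.234). Without replicate 2 of TH 24 h, a library that enters the estimate of spread shared by all groups, the adjusted p was 0.0108. The markers of projection neurons of both pathways moved with Ebf1. Those of the direct pathway (5) summed to 689 and 971 CPM in PTU, to 541, 363, 354 and 311 at 12 h and to 715, 108, 760.0 and 379 at 24 h. Those of the indirect pathway (5) summed to 1328 and 1967 CPM in PTU, to 575 to 1029 at 12 h and to 1402, 44.2, 1532 and 690 at 24 h. The 10 markers of cortical excitatory neurons ran the other way, with 603 to 980 CPM in PTU, 1224 to 1816 at 12 h and 2890.3 in replicate 2 of TH 24 h. The part of these neuron types in the Ebf1 value was not tested.

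Tle3 in striatum was at 229.5 and 157 normalised counts in PTU, at 302, 334, 363 and 412 at 12 h and at 221, 545, 206 and 373 at 24 h. Tle3 differed from PTU by 0.87 ± 0.36 on the log2 scale at 12 h and by 0.80 ± 0.36 at 24 h, with adjusted p of 0.206 and 0.509. Zfp423 was at 220.1 and 164 in PTU, at 218 to 232 at 12 h and at 124 to 187 at 24 h, with log2 changes of 0.24 ± 0.17 (adjusted p = 0.454) and -0.39 ± 0.17 (adjusted p = 0.503). Pparg, Cebpa, Cebpb and Ebf2 were low in these libraries, with raw counts of 2 to 75 for Pparg, 16 to 30 for Cebpa, 6 to 25 for Cebpb and 4 to 51 for Ebf2 over the 10 libraries. Pparg had log2 changes of 1.42 ± 1.15 and 1.78 ± 1.14, with 59.2 normalised counts in replicate 4 of 12 h and 84.1 in replicate 2 of 24 h against 2.38 in replicate 3 of 24 h. The cortical neuron markers summed to 980, 2890, 802 and 1692 CPM in the 24 h libraries, an order that Tle3 and Pparg shared. At 12 h all these sums lay above PTU, as did Tle3 and Pparg, but the order of libraries differed. The part of cortical neurons in the Tle3 and Pparg values was not tested. Cebpd had log2 changes of 0.13 ± 0.25 and -0.02 ± 0.26.

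**Figure D5:**
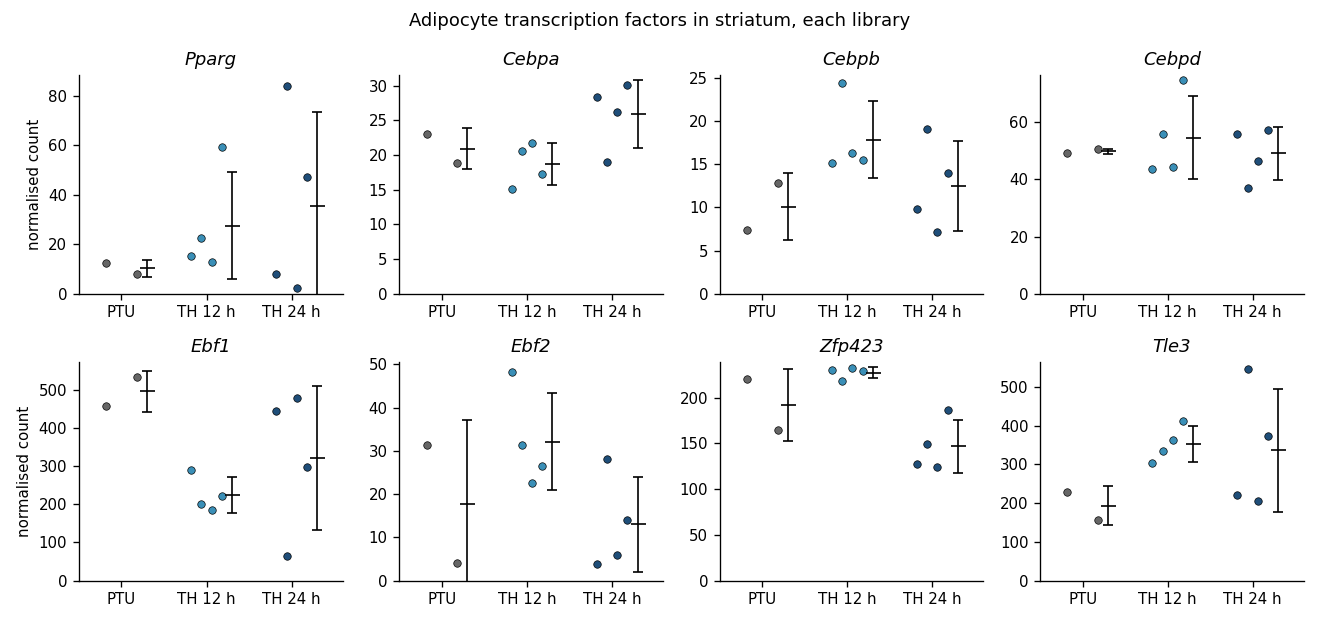
Normalised counts of the 8 genes in each of the 10 striatum libraries (points), by group, with mean ± SD (PTU n = 2, TH 12 h and TH 24 h n = 4). Ebf1 was at 65.0 in replicate 2 of TH 24 h and above 180 elsewhere, and Pparg, Cebpa, Cebpb and Ebf2 stayed below 90 throughout.

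The response at 24 h was compared directly between the tissues by an edgeR interaction test over all 22 libraries. None of the 8 genes differed at an adjusted p under 0.05, against 5.08% of 12864 genes (1.71% with the larger value in WAT and 3.37% in striatum). Beside 2634 of the 12864 genes at an unadjusted p under 0.05, there were 2 of the 8. These were Pparg, with a WAT change minus striatum change of -2.48 ± 0.96 (adjusted p = 0.147), and Cebpb, with 1.38 ± 0.60 (adjusted p = 0.192). With single libraries left out, Pparg ranged from -1.62 without replicate 2 of striatum TH 24 h (adjusted p = 0.340) to -2.85 without replicate 3 of that group (adjusted p = 0.0476). The cortical neuron markers given above also varied between the libraries of that group, and their part in the Pparg difference was not tested. For Ebf1, the difference was 0.01 ± 0.48 (adjusted p = 0.994), and for Zfp423 it was -0.29 ± 0.23 (adjusted p = 0.510). The test thus did not show that the responses of these genes differed between WAT and striatum, nor that they were alike. Xist was high in every library of striatum TH 24 h but not in every library of striatum PTU, and it was at most 8.73 normalised counts in WAT. The part of sex in these differences between the tissues was not tested.

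The genes most like each called member over the 12 WAT libraries were listed by Pearson r of log2 CPM, a description that carries the group differences and the shared libraries with it. For Cebpb they were Itpr2 (r = 0.950), Tlcd2 (0.941) and Idh3a (0.938), the last encoding a subunit of isocitrate dehydrogenase, which rose from 4621 to 11403 normalised counts from PTU to 24 h. For Cebpa they were Whamm (0.971), Picalm (0.962) and Ube2h (0.952), each highest at 6 h. For Ebf1 they included Rps6ka3 (0.959) and the cell cycle inhibitor Cdkn2b (0.950), and for Pparg they were 4930578C19Rik (0.925), the growth factor gene Pdgfc (0.924) and the autophagy gene Atg5 (0.917). For Zfp423 they were Fam20c (0.951), Fgf10 (0.949) and 9530068E07Rik (0.934), and Fgf10, a growth factor made by fat precursors, fell from 1229 to 308 normalised counts from PTU to 24 h. All these genes were picked for their likeness to a called gene in the same libraries, so their changes are not separate evidence.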

How the data were processed

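RNA of WAT (Trizol) and striatum (RNeasy) was sequenced from total RNA SENSE libraries on an Illumina sequencer. Per the study's methods, the authors aligned reads to GRCm38 (mm10) with Bowtie2 (version 2.2.6.2 in the submitters' processing notes), removed alignments of quality below 10 and counted reads per gene with htseq-count. The deposited values are raw counts per gene symbol, in 1 table per tissue, with no normalization. Annotation release and strand setting were not given in the sources used here. The tables have 47643 (WAT) and 55341 (striatum) rows, of which 15 and 14 are gene symbols turned into dates and were left out (at most 0.201% of counts of a library).

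Counts were tested with edgeR 4.0.16 (TMM factors, glmQLFit, glmQLFTest) in 1 fit per tissue over its groups, for genes with a mean normalised count above 10, two-sided, with Benjamini-Hochberg adjustment over all genes tested and a threshold of 0.05. The 24 h responses of the tissues were compared by an interaction contrast. The edgeR test replaced the DESeq2 test of the study, which was run as an alternative (DESeq2 1.42.0). Scripts were tested on simulated data. CPM was divided by the union of GENCODE M21 exons for levels per length. Likeness used log2 CPM with a prior count of 2. All 8 members are named. Of each other list, up to 4 called genes per direction and comparison with groups that do not overlap were named by size of change, and for each member called in WAT the 3 genes highest in Pearson r. Members and lists were chosen with earlier results of these data known. No 2 libraries of a group agreed within counting noise. In WAT, 235 pairs of rows held counts within 2% of each other in every library, with 0 of the 8 genes among them. Alternatives were other size factors, no filter, fewer groups in the fit, DESeq2, a replicate block, copied rows left out, marker sums as covariates, and each library left out in turn. A covariate for Xist in striatum was added after seeing the data. A few genes that these rules select are not reported here.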

Additional observations from a re-analysis of the deposited data

Results flagged for a closer look

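In 2 of 40 groups of 4 libraries, 1 library stood apart from the other 3 of its group by Dixon's criterion, which flags about 1 in 20 groups by chance. Cebpd was at 855 normalised counts in replicate 2 of WAT TH 24 h, against 214 to 294 in the other libraries of that group. Cebpb was at 24.5 normalised counts in replicate 2 of striatum TH 12 h, from 25 raw counts, against 15.1 to 16.3 in the others. The Cebpd difference at 24 h takes its sign from that library, while no call in striatum rests on the Cebpb value.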

How the results depend on the processing

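Of 936 alternative values of single genes, 862 kept their direction and their side of the threshold, 39 lost it, 8 gained it and 27 changed sign, and the cause was not tested. In WAT at 6 h, 1 of 8 genes (main 3) was called with only the groups of the contrast, with the replicate block and with the muscle covariate, and 0 with the epithelium covariate, and 1 to 3 with single libraries left out. The replicate block took the calls of Cebpa (adjusted p = 0.0572) and Cebpb (0.0636) at 6 h and changed no other call of the 8. Deviations from the group means in same-numbered libraries correlated between -0.472 and 0.394 in WAT (12 pairs) and between -0.395 and 0.267 in striatum (6 pairs). Libraries of different numbers were not compared in this way, so these values cannot tell whether equal numbers mark a pairing. Without a low-count filter, Cebpa was not called at 6 h (0.0917). At 24 h, 3 to 4 were called with libraries left out. From 6 h to 24 h (main 2), 0 were called with either covariate and 0 to 3 with libraries left out. In striatum at 12 h (main 0), 2 were called with only the groups of the contrast, Ebf1 (0.00786) and Tle3 (0.0202), and 0 to 1 with libraries left out. The interaction gave 0 to 1.

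Over all genes, calls in WAT at 6 h (main 1296) were 834 with only the groups of the contrast, 2104 by DESeq2, 411 with the epithelium covariate and 684 to 1898 with libraries left out. At 24 h (3060) they were 2037 with only those groups and 1957 to 4264 with libraries left out. From 6 h to 24 h (1329) they were 2444, 2137 by DESeq2, 778 with the replicate block, 462 and 246 with the muscle and epithelium covariates and 661 to 2038 with libraries left out. In striatum at 12 h (152) they were 308 without the filter, 1442 with only those groups, 780.0 by DESeq2, 0 with the replicate block, 60 with the Xist covariate and 0 to 1257 with libraries left out. At 24 h (55) they were 104, 0, 204, 0 and 3 in that order and 0 to 115. For the interaction (653) they were 424 without the filter, 243 with only those groups and 221 to 1082.

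Signs turned as follows, none of them of a called change. Tle3 in WAT at 6 h was -0.052 with the epithelium covariate and -0.057 to 0.29 with libraries left out, at 24 h -0.017 to 0.35 and from 6 h to 24 h -0.075 to 0.13. Cebpd at 24 h ranged from -0.25 to 0.87. In striatum the replicate block gave -0.67, -0.051, -0.61 and -0.038 for Pparg, Cebpd, Ebf2 and Zfp423 at 12 h and -0.58 for Pparg at 24 h. With libraries left out, Cebpd at 12 h ranged from -0.067 to 0.22, and at 24 h Cebpb ranged from -0.050 to 0.76, Cebpd from -0.10 to 0.079 (0.099 with the Xist covariate) and Ebf2 from -1.28 to 1.66. The interaction ranged from -0.22 to 0.91 for Cebpd, -0.32 to 0.26 for Ebf1 and -1.82 to 1.12 for Ebf2. By longest transcript, Pparg, Ebf1, Ebf2 and Tle3 in WAT PTU were at 123.1, 21.2, 3.67 and 5.33 CPM per kilobase. Of the 15 genes most alike, 3 were also among the top 3 by Spearman rho. The striatal values of Pparg, Cebpa, Cebpb and Ebf2 rest on at most 75 raw counts a library.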

Other observations

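Among the 8 genes themselves, the levels over the 12 WAT libraries (log2 CPM) were most alike for Cebpa and Ebf2 (Pearson r = 0.852) and for Ebf1 and Zfp423 (r = 0.799), and most opposed for Cebpb and Zfp423 (r = -0.848) and Cebpb and Ebf1 (r = -0.842). After removal of the group means these values were 0.645, 0.384, -0.352 and -0.444, so that much of the likeness lay between groups. The pair highest within groups was Cebpa and Tle3 (0.786, against 0.374 over all). The libraries, their depth and their cell makeup are shared by all such pairs.

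For the 3 genes not called in WAT, the most similar genes were listed after seeing the data. They were Errfi1 (r = 0.907), Arl6ip5 (0.904) and Gm14681 (0.904) for Cebpd, Tollip (0.899), Tns2 (0.894) and Spatc1 (0.885) for Ebf2, and Wipi2 (0.922), Piezo1 (0.919) and Gm8388 (0.870) for Tle3.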
